A study of Mus musculus with 29 samples.

Results

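The genes described here build and operate the primary cilium: 42 genes out of 55401 rows in the deposited count tables. They were chosen by name, as the 14 symbols made of Ift and a number, the 8 made of Bbs and a number, and 20 further genes of intraflagellar transport, its motors, the transition zone and ciliary signalling. The study sequenced RNA of mesenchymal cells that surround the common bile duct of the mouse: 29 libraries in 9 groups, each from about 1000 sorted cells of a single animal. All 6 Gli1 libraries came from Gli1:CreERT2 mice carrying the Rosa26 lox-STOP-lox-tdTomato reporter, 3 of them uninjured and 3 taken on day 4 after BDL, read here as bile duct ligation. All 23 Pdgfra libraries came from Pdgfra:CreERT2 mice with the same reporter. They were 5 wild type, 4 SmoFF, 3 SmoM2, 3 Ctnnb1FF, 2 Gli2FF, 2 Gli3FF and 4 Gli2FFGli3FF. FF is read as a pair of loxP-flanked alleles and SmoM2 as the constitutively active form of Smo, the transducer of Hedgehog signals. Every mutant therefore also carries the Cre driver and reporter of the wild type group, and Cre acts only in cells that expressed Pdgfra. The sources used here give neither age, sex nor the time of Cre induction, and no sham-operated group is named for the ligation. One label of the fifth wild type library also mentions SmoFF. Its title and genotype say wild type, and it was kept there.

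The primary cilium is a single antenna of microtubules on most mesenchymal cells. Cargo moves outward on the IFT-B complex with kinesin-2 and back on the IFT-A complex with cytoplasmic dynein 2, while the BBSome carries membrane proteins and the transition zone acts as a gate at the base. Vertebrate Hedgehog signalling runs through this organelle, since Smo acts there and the Gli proteins are processed in dependence on it. Gli1 is itself a target gene of that pathway, and most cells lose the cilium when they enter the cell cycle.

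Many cilium genes carry binding motifs of the RFX transcription factors in their promoters. Sequences of 300 bases around the start site (250 before, 50 after) from RefSeq, build GRCm38.p6, were matched for 37 of the 42 genes. Ift80, Ift81, Ift122, Tmem67 and Dync2li1 had no entry. On either strand, 9 of the 37 (24.3%) held the half-site GTTGCCA, against 5.02% of 27025 genes with a promoter of that length. The palindrome, which reads GTTGCC, 2 free bases, GG, 1 free base and AAC, stood in 3 (8.11%), against 0.355% of all, and the variant half-site GTTACCA in 3 (8.11%), against 2.96%. At least 1 of the motifs was present in 13 of 37 (35.1%), against 7.82% of all genes. A half-site can lie within a palindrome, as it does in Mks1, and a match of letters is a description, not a measured binding site. The 30-base windows below show the palindromes first, then half-sites of some transition zone and transport genes that recur in the results. The half-sites of B9d1, Wdr35 and Bbs1 and the variant half-sites are not printed. Motifs are in capitals, 5′ to 3′ on the gene's strand.
Bbs7 (chr3:36613489-36613518, minus strand): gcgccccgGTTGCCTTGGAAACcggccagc
Tctn1 (chr5:122264411-122264440, minus strand): gcgctaggctgtgactGTTGCCCGGGCAAC
Mks1 (chr11:87853183-87853212, plus strand): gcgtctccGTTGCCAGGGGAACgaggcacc
Tctn2 (chr5:124598751-124598780, plus strand): attgattggtgGTTGCCAtggctgcaggca
Tctn3 (chr19:40612353-40612382, minus strand): ggctcccagcgGTTGCCAggtaacgggaac
Dync2h1 (chr9:7177009-7177038, minus strand): catagcgacggagctTGGCAACtgctgagt
Ift88 (chr14:57424080-57424109, plus strand): ggagtcgcgccTGGCAACggctgggcgtcc
Ift27 (chr15:78174072-78174101, minus strand): ggttgatgatgGTTGCCAggagcctgtttg
In Dync2h1 and Ift88 the half-site reads on the opposite strand.

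Total counts per library were 15021796 to 38301189. The ribosomal RNA locus CT010467.1 took 2.37 to 3.87% of them in the Gli1 libraries, 13.4 to 29.4% in wild type, 28.0 to 34.4% in Ctnnb1FF, 24.5 to 39.1% in Gli3FF and 38.4 to 50.03% in Gli2FFGli3FF. Genes with a count numbered 21127 to 24483 in wild type, 15892 to 17726 in Ctnnb1FF and 17508 to 20055 in Gli2FFGli3FF. In the Gli1 line they numbered 17121 to 20753 in uninjured and 23482 to 24964 in ligated libraries, without overlap. Smo was at 7.88 ± 0.918 CPM in SmoFF against 29.6 ± 5.96 in wild type, Gli3 at 13.4 ± 1.46 in Gli3FF against 36.4 ± 6.31, Gli2 at 9.86 ± 4.16 in Gli2FF against 17.7 ± 3.23, and Ctnnb1 at 43.3 ± 5 in Ctnnb1FF against 58.5 ± 5.13. Neither the Ctnnb1 difference in Ctnnb1FF (−0.44 log2, adjusted p = 0.108) nor that of Gli2 in Gli2FF (−0.85, adjusted p = 0.398) was called, and counts per gene do not separate the floxed exons. Gli2 and Gli3 were also low in Ctnnb1FF, at 9.84 ± 3.99 and 12.6 ± 3.97 CPM. In Gli2FFGli3FF, Gli2 was at 4.84 ± 2.23 and Gli3 at 5.81 ± 2.07 CPM (SD, n = 2 to 5 per group). All 10 mesenchymal markers had counts in every group, with a summed level of 20289 CPM or more in each library. Foxj1, the master factor of motile cilia, averaged 0 to 0.222 CPM in the 9 groups. Levels are CPM, a gene's counts divided by the library size after TMM scaling, and Gli1 and Pdgfra libraries were scaled separately. Differences are log2 fold changes of edgeR's quasi-likelihood test, and a gene is called at a Benjamini-Hochberg adjusted p under 0.05 over all genes tested. Each library came from an individual animal, per the labels' protocol.

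Among the 42 genes the levels differed widely. Per kilobase of exon in wild type, Ift20, an IFT-B subunit that also sits at the Golgi, was highest with 45.1 ± 9.92 CPM per kb (SD, n = 5). Dync2li1, the light intermediate chain of dynein 2, followed with 15.9 ± 4.88, then the transition zone protein B9d1 with 15.4 ± 3.66 and the IFT-A subunit Ift43 with 14.1 ± 1.58, an order that lies within their spread. The lowest were Kif17, a kinesin-2 of neurons and photoreceptors, with 0.134 ± 0.08, and the transition zone scaffold Rpgrip1l with 0.502 ± 0.204 CPM per kb. In uninjured Gli1 libraries Ift20 was again highest, as it was in each of the 29 libraries, with 72.15 ± 14.998 CPM per kb (n = 3), and B9d2, Ift43, B9d1 and Dync2li1 came next with 18.2 to 26.8. The 4 genes of highest level per kb in wild type have union exon lengths of 1525 to 1869 bases, and per-kilobase levels depend on which exons the annotation lists. The summed level of all 42 genes was 657 to 709 CPM in wild type and stayed between 605 and 859 in every Pdgfra library.

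**Figure D1:**
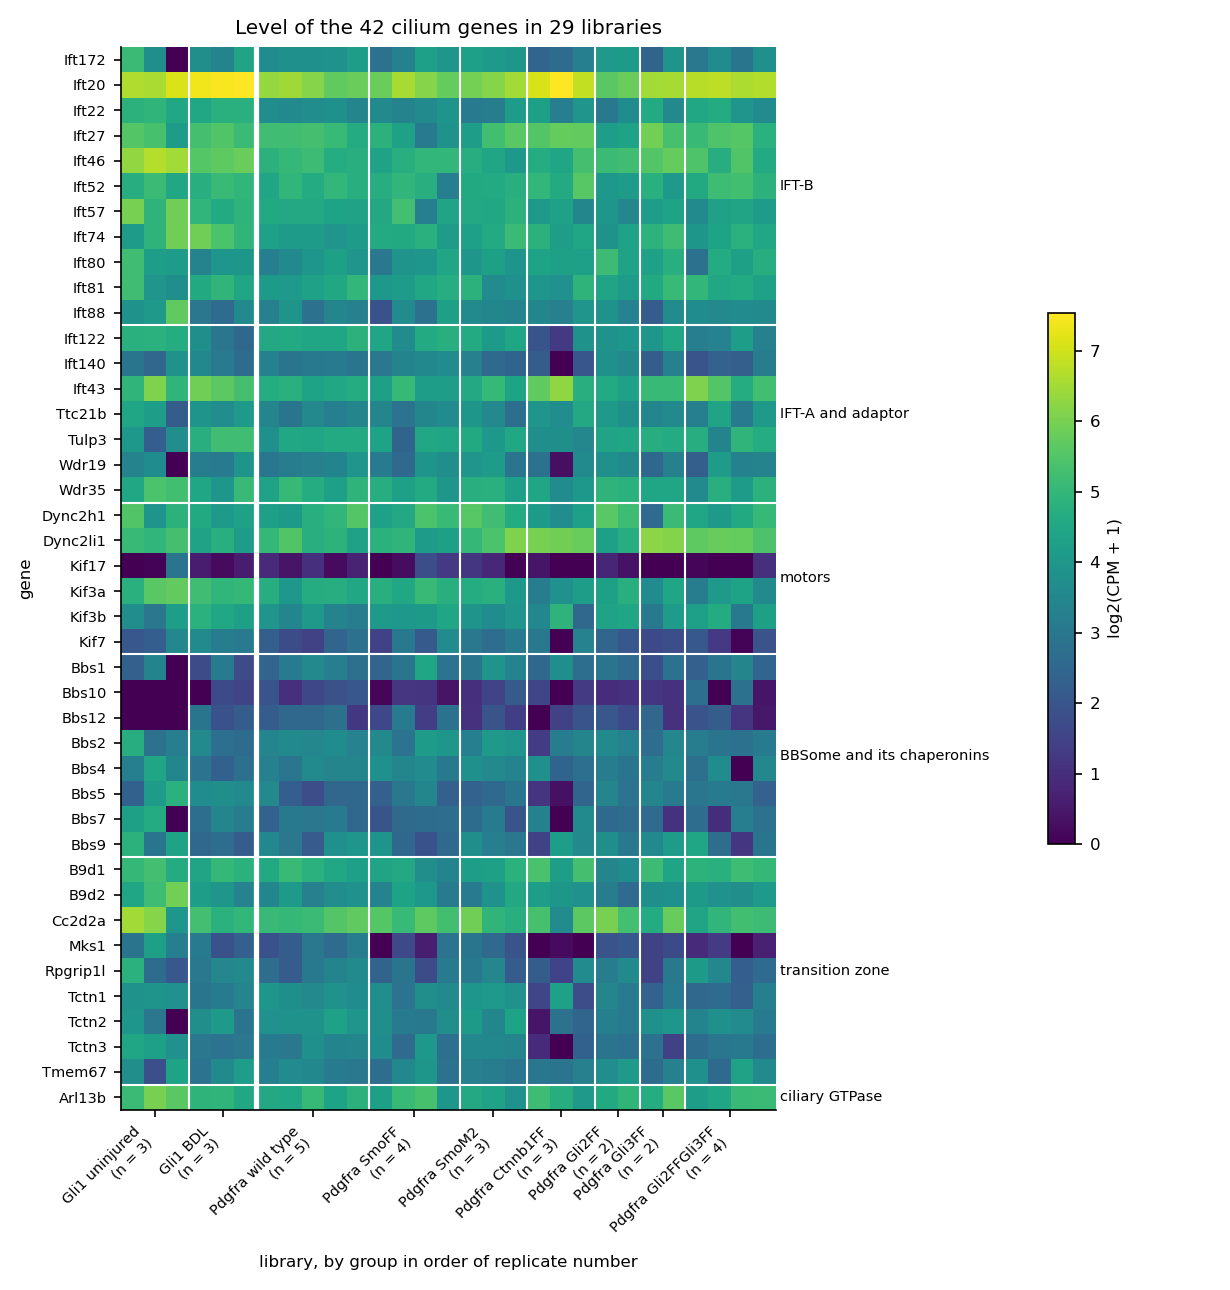
Heat map of the level of each of the 42 genes (rows, by complex) in each of the 29 libraries (columns, by group), as log2(CPM + 1). Gli1 libraries, left of the thick line, were scaled apart from Pdgfra libraries. Ift20 is the brightest row in most libraries, Kif17 and Bbs10 are among the darkest, and the lowest values in uninjured replicate 3 and Ctnnb1FF replicate 2 are genes without a count.

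Replicates differed more in some groups than in others. Over genes with at least 1 CPM, the median coefficient of variation was 22% in wild type, 21.3% after ligation, 43.1% in Ctnnb1FF and 55.0% in uninjured libraries. Uninjured replicate 3 had no count for 7 of the 42 genes and Ctnnb1FF replicate 2 none for 6, while every wild type library had counts for all 42.

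Ligation was compared with no injury to ask how the cells change after obstruction of the duct. Of 41 cilium genes tested, 3 were called (13.6% of all 17150 genes were), with 1 higher, Bbs12 (7.77% of all genes), and 2 lower, Ift46 and Ift122 (5.8% of all genes). Bbs10 had no count in uninjured libraries and did not pass the filter on low counts. At unadjusted p under 0.05 there were 3 higher and 10 lower. The share of all genes at that unadjusted threshold was not counted, so such counts, here and below, have no background beside them. The median log2 change of the 41 genes was −0.35, against 0.07 over all genes tested, and 28 of 41 were below 0. That majority below 0 was not seen with limma voom or with a replicate block, each with 20 of 41 above 0. The median of the 41 was −0.05 with limma voom and −0.08 with the block, against 0.26 over all genes in each. It thus stayed below the median of all genes, while the count of signs depended on the setting. The libraries of the groups did not overlap for 15 of 41 genes, 11 of them lower, against 37.2% of all genes tested.

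Ift46, an IFT-B subunit, was at 78.3, 103 and 88.8 CPM in uninjured replicates 1 to 3 and at 45.5, 50.01 and 55.2 after ligation. All ligated libraries lay below all uninjured ones, and the gene fell by 0.84 log2 (SE 0.18, adjusted p = 0.0293 by edgeR's quasi-likelihood test). Ift122, a core subunit of IFT-A, was at 26.5, 26.9 and 24.4 CPM before and at 12.6, 6.72 and 4.79 after ligation. Its uninjured libraries were close together and those after ligation spread over a wider range, all lower, with a log2 change of −1.69 (SE 0.43, adjusted p = 0.0491). Bbs12, a chaperonin-like protein that helps assemble the BBSome, had no count in any uninjured library and 6.65, 2.69 and 3.69 CPM after ligation. With the uninjured level set to a floor of 3 counts per library the ratio is 30.2, and edgeR gave adjusted p = 0.0195. That ratio is not a minimum, since the floor does not cover differences between libraries. In uninjured replicates 1 to 3, Bbs7 had 374, 540 and 0 counts and Ift172 690, 285 and 0. The uninjured libraries also had fewer genes with a count, as given above, and the part of this in the zeros was not tested. The annotated exons of Bbs12 share 1.3% of their bases on each strand with Cetn4 and Gm43439. Leaving out 1 library at a time gave 0 to 4 called cilium genes. Ift46 was called only without uninjured replicate 1 (adjusted p up to 0.122 otherwise), Ift122 only without ligated replicate 1 (up to 0.184), while Bbs12 was called whichever uninjured library was left out and not when any ligated one was (up to 0.101). None of the 3 was called with the ribosomal RNA share as a covariate, where 3.5% of all genes were.

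IFT-B otherwise moved in both directions. Ift20 was at 98.6, 95.1 and 136 CPM before and at 166, 175 and 181 after ligation, every ligated library higher, with a log2 change of 0.66 (SE 0.19) that missed the threshold (adjusted p = 0.068). Ift88, needed for cilium assembly, was at 13.4, 15.9 and 50.5 against 7.02, 5.27 and 11.2 CPM, a difference of −1.76 (SE 0.63, adjusted p = 0.128) that rests in part on the high level in uninjured replicate 3. Median changes were −0.09 for 11 IFT-B genes and −0.001 for 7 genes of IFT-A and its adaptor Tulp3. Tulp3, which brings receptors into the cilium, was at 15.1, 3.73 and 11.95 CPM before and 25.6, 36.7 and 36.2 after, without overlap (log2 change 1.68, SE 0.53, adjusted p = 0.0942).

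Among the motors, Dync2li1 was at 33.1, 30.2 and 38.8 CPM in uninjured libraries and at 19.1, 25.96 and 16.6 after ligation (log2 change −0.73, SE 0.27, adjusted p = 0.146). Its groups did not overlap. The dynein 2 heavy chain Dync2h1 was at 28.6 ± 15.1 against 19.2 ± 3.51 CPM (−0.57, adjusted p = 0.502), Kif3a, the kinesin-2 motor subunit, at 41.8 ± 13.5 against 32.8 ± 3.51 (−0.35, adjusted p = 0.542) and Kif7, the kinesin that organises the cilium tip for Gli proteins, at 5.83 ± 4.13 against 8.92 ± 1.95 (0.61, adjusted p = 0.632). None of these 3 separated the groups. Kif7 shares 20.3% of its exon bases with genes on the other strand, and strand use in the counting is not stated, so its values are uncertain.

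No transition zone gene was called, and Bbs12 was the single call in the BBSome group. The median change over 9 transition zone genes was −0.76, with 7 below 0, and over 7 BBSome and chaperonin genes −0.84, with 6 below 0. Tctn3, a tectonic protein of the transition zone, was at 21.2, 18.2 and 13.1 CPM before and 7.02, 6.34 and 6.90 after ligation, with a wide gap between the groups (−1.37, SE 0.37, adjusted p = 0.0594). B9d2 was at 39.0 ± 20.3 against 13.9 ± 4.38 (−1.49, adjusted p = 0.0935). Arl13b, the GTPase of the ciliary membrane, was at 34.1, 63.2 and 48.1 against 29.004, 29.8 and 22.2 CPM, again without overlap (−0.85, SE 0.29, adjusted p = 0.114).

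**Figure D2:**
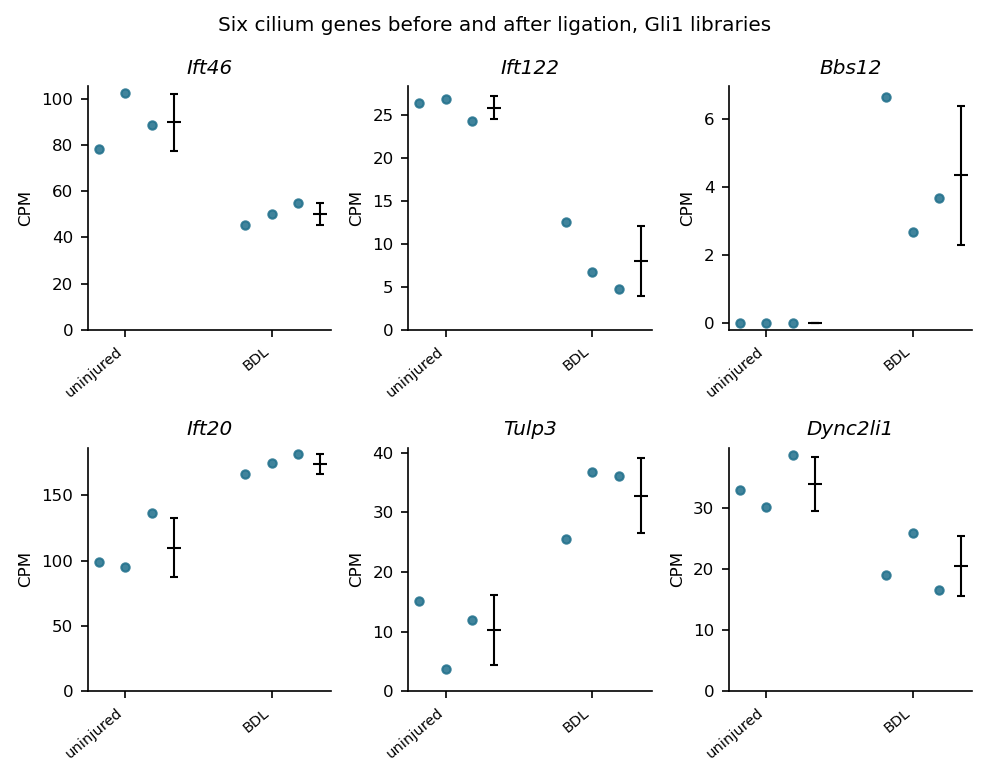
CPM of 6 cilium genes in the 3 uninjured and 3 ligated Gli1 libraries, as points, with mean and SD beside them. Ift46, Ift122 and Dync2li1 lie lower and Bbs12, Ift20 and Tulp3 higher in every ligated library, and only Ift46, Ift122 and Bbs12 passed the threshold.

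Other genes of the organelle and of its loss were measured too. Of 15 further IFT, BBSome and motor subunits tested by edgeR, Dynlrb1, a dynein light chain, rose by 0.72 (SE 0.18, adjusted p = 0.0426) and Ttc30b, an IFT-B subunit, fell by 1.64 (SE 0.42, adjusted p = 0.049). Of 17 further transition zone and nephronophthisis genes 1 fell, Tmem107, from 81.0 ± 14.4 to 32.5 ± 7.28 CPM (−1.32, adjusted p = 0.0211). Of 21 basal body genes 0 were higher and 2 lower at unadjusted p under 0.05 by edgeR, with 0 past the adjusted threshold. Of 24 genes of the ciliary membrane and signalling, 2 fell, among them Evc, a regulator of Smo (−1.30, SE 0.31, adjusted p = 0.0371). The shares of all genes called after ligation, 7.77% higher and 5.8% lower, stand beside these counts and the next. Of 12 genes listed for cilium disassembly 4 rose and none fell. This list also holds genes of mitosis and centriole duplication, such as Plk1, Plk4 and Stil, so it is not specific to the cilium. In it, the kinase Nek2 and Stil went from no count to 10.9 ± 5.52 and 8.05 ± 4.59 CPM. Of the listed regulators of cilium genes, which include Rfx1 and Rfx3, only Rfx2 was called. It fell from 30.7 ± 5.35 to 1.73 ± 1.48 CPM (−4.14, adjusted p = 0.0154 by edgeR). Cell cycle genes moved with the ligation: 10 of 25 rose, none fell, and their summed level was 64.7 to 202 CPM before and 735 to 1688 after. Smooth muscle and pericyte markers summed to 58.1 to 129 against 4519 to 5439 CPM, with 4 of 8 higher. Mesothelial markers summed to 292 to 859 against 46.7 to 75.9 CPM, with 6 of 8 lower. Cholangiocytes are ciliated too, and their 12 markers summed to 95.2 to 976 CPM before and 273 to 382 after. The part of these in the values of the cilium genes was not tested. In bulk RNA, fewer ciliated cells and less RNA per cell cannot be told apart.

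Each Pdgfra mutant was set against wild type, which asks what changes with the altered Hedgehog genes or with the floxed Ctnnb1 alleles, the gene of beta-catenin. Those 6 comparisons share the 5 wild type libraries, so their values are given side by side and not as independent results. A single test for any difference among the 7 genotypes called 7 of 42 cilium genes (32.8% of all 24383 genes were called): Dync2li1 (adjusted p = 0.000358), Ift20 (0.000973), Ift27 (0.0102), Ift43 (0.0124), B9d1 (0.0276), Mks1 (0.043) and Ift122 (0.0495), all by edgeR's quasi-likelihood test.

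In SmoFF, with Smo lowered, none of 42 was called by edgeR (1.55% of all genes were, 0.287% higher and 1.26% lower), with 0 higher and 1 lower at unadjusted p under 0.05. DESeq2 and limma voom called 0 as well, against 5.82% and 1.78% of all genes. The median change was 0.03, against 0.02 over all genes, with a median SE of 0.38, and the groups did not overlap for 1 gene, against 4.79% of all. The gene with the smallest p was Ift27, a small GTPase of IFT-B that works with the BBSome. The 4 SmoFF libraries had 27.9, 18.98, 7.77 and 13.3 CPM of it and the 5 of wild type 36.3, 36.7, 38.8, 32.8 and 23.9. Most SmoFF libraries were lower, replicate 1 overlapped wild type replicate 5, and the change of −0.99 (SE 0.31) had adjusted p = 0.118. Arl13b (0.11), Ift88 (0.04), Kif3a (0.26), Kif7 (0.69) and Dync2h1 (0.09) had log2 changes with adjusted p from 0.801 to 1. Outside the 42, Tmem107 fell here as well, by 1.19 (SE 0.29, adjusted p = 0.0398).

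In SmoM2, with active Smo, none of 42 was called by edgeR (0.205% of all genes were, 0.127% higher and 0.0779% lower), with 2 higher and 0 lower at unadjusted p under 0.05. DESeq2 and limma voom called 0 as well, against 1.49% and 5.97% of all genes. Ptch1 and Hhip, feedback targets of the pathway, rose by 3.29 and 5.29 log2. The median change was 0.05, against 0.02 over all genes, and the median SE was 0.41. No cilium gene separated the groups, against 8.41% of all genes. The 2 genes at unadjusted p under 0.05 were Dync2li1 (0.65, SE 0.26, adjusted p = 0.539) and the IFT-B subunit Ift74 (0.60, SE 0.26, adjusted p = 0.584).

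Set against each other, SmoM2 and SmoFF differed in 1 cilium gene, Dync2li1, which was higher (2.63% of all genes were called, 1.74% higher and 0.89% lower). Its levels were 31.7, 40.9 and 67.01 CPM in the 3 SmoM2 libraries and 27.1, 29.7, 16.7 and 18.6 in the 4 of SmoFF. Every SmoM2 library lay above every SmoFF library, the nearest by a small margin, with a log2 change of 1.02 (SE 0.27, adjusted p = 0.0453). The call was lost in 12 of 17 alternatives, among them without any 1 library other than SmoM2 replicate 1, with adjusted p up to 0.318. Ift27 was at 17.3, 37.2 and 48.2 CPM in SmoM2 and differed from SmoFF by 1.01 (SE 0.34), which missed the threshold (adjusted p = 0.131). The 42 genes had a median change of 0.14 against 0 over all genes.

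In Ctnnb1FF 8 of 42 cilium genes were called, 3 higher and 5 lower (19.9% of all genes were called, 8.04% higher and 11.9% lower), a share near that of all genes. Dync2li1, Ift20 and Ift43 rose, and the transition zone genes Mks1, Tctn2 and Tctn3, the IFT-A gene Ift122 and the IFT-B gene Ift172 fell. The median of the 42 was −0.26, against −0.61 over all genes and −0.20 over the 10424 protein-coding genes whose mean log2 CPM reached 2. The groups did not overlap for 12 of 42, against 25.2% of all genes.

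Mks1, a B9 domain protein of the transition zone, was at 2.71, 3.68, 7.06, 5.23 and 8.18 CPM in wild type replicates 1 to 5 and at 0, 0.157 and 0 in Ctnnb1FF replicates 1 to 3. Only 4 counts were seen in Ctnnb1FF against 760 in wild type, a ratio of levels of 0.0117 with a 95% interval from counting error alone of 0.00317 to 0.03. EdgeR gave adjusted p = 0.00721, and the call held in all 20 alternatives. Tctn2, a tectonic protein, was at 0.336, 6.15 and 4.55 CPM against 12.9, 13.3, 13.6, 18.8 and 14.4 in wild type. Its Ctnnb1FF libraries were all lower, by 1.98 log2 in the fit (SE 0.53, adjusted p = 0.0106). Tctn3 was at 0.896, 0 and 4.10 CPM against 7.42, 7.06, 12.7, 9.48 and 9.96, also without overlap (−2.49, SE 0.81, adjusted p = 0.0346). That call was lost in 7 of 20 alternatives, among them without Ctnnb1FF replicate 1 or 2 or wild type replicate 3 and with either set of wild type libraries alone. The remaining tectonic gene, Tctn1, was at 1.96, 19.05 and 2.45 CPM against 10.8 to 14.95, its second library above all of wild type, and was not called (−0.68, adjusted p = 0.342). In all, 3 of 9 transition zone genes fell. The promoters of Mks1, Tctn2 and Tctn3 hold motifs printed above. Of the 13 genes with a motif only these 3 were called, beside 8 of all 42 cilium genes and 19.9% of all genes. Tctn1, B9d1, Dync2h1, Wdr35, Ift27, Ift57, Ift88, Arl13b, Bbs1 and Bbs7 hold one and were not. Among the other called genes, no motif was found for Ift20, Ift43 and Ift172, and Ift122 and Dync2li1 had no promoter entry. A part of the motifs in these changes was not tested. B9d1 (0.39), B9d2 (0.35), Cc2d2a (−0.23), Tmem67 (−0.31) and Rpgrip1l (−0.39) were not called.

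In the transport complexes the subunits parted. Ift122 was at 2.91, 1.45 and 13.7 CPM in Ctnnb1FF and at 22.2, 23.4, 21.004, 20.99 and 27.5 in wild type. Replicate 3 of Ctnnb1FF was nearer to wild type than replicates 1 and 2, still below it, and the change was −1.94 (SE 0.50, adjusted p = 0.00834). Without Ctnnb1FF replicate 1 or 2 the call was lost (adjusted p up to 0.0628). Ift43, another IFT-A subunit, was at 51.3, 77.5 and 25.8 CPM against 24.3, 26.4, 19.8, 21.5 and 24.4. Replicate 3 lay within the wild type range, and the rise was 1.15 (SE 0.31, adjusted p = 0.0123), lost without Ctnnb1FF replicate 2 (adjusted p = 0.102) and with either set of wild type libraries alone. Of the other IFT-A genes, Ift140, at 3.70, 0 and 3.05 CPM against 6.46 to 8.91 in wild type, lay lower without overlap but was not called (−1.71, SE 0.76, adjusted p = 0.109), as was Ttc21b, at 14.4, 12.0 and 22.6 against 6.59 to 10.7 CPM (0.85, adjusted p = 0.0955).

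Ift20 was the steadiest of the genes that rose. It was at 135, 185 and 113 CPM in Ctnnb1FF and at 79.6, 86.6, 70.5, 51.5 and 55.5 in wild type, all mutant libraries higher (1.07, SE 0.21, adjusted p = 0.000919), and was called in all 20 alternatives. Ift172, a peripheral IFT-B subunit, was at 4.48, 5.33 and 8.56 CPM against 11.7, 12.8, 12.7, 13.7 and 17.7 (−1.16, SE 0.41, adjusted p = 0.0466). It separated the groups, but its call was lost in 17 of 20 alternatives, including without any single wild type library and without Ctnnb1FF replicate 1 or 2. Dync2li1 was at 62.1, 59.3 and 53.7 CPM against 31.8, 43.7, 26.2, 28.3 and 18.8, again above every wild type library (0.97, SE 0.26, adjusted p = 0.0102). With wild type replicates 1 to 3 alone, a replicate block or the ribosomal RNA share as a covariate it was not called (adjusted p up to 0.0946). The other dynein 2 gene, Dync2h1, was not called (−0.81, SE 0.44, adjusted p = 0.175), nor were Kif3a (−0.79, SE 0.33, adjusted p = 0.0853), Kif7 (0.53, adjusted p = 0.72), Arl13b (0.05, adjusted p = 0.94), Ift88 (0.21, adjusted p = 0.773) and any of the 8 BBSome and chaperonin genes.

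**Figure D3:**
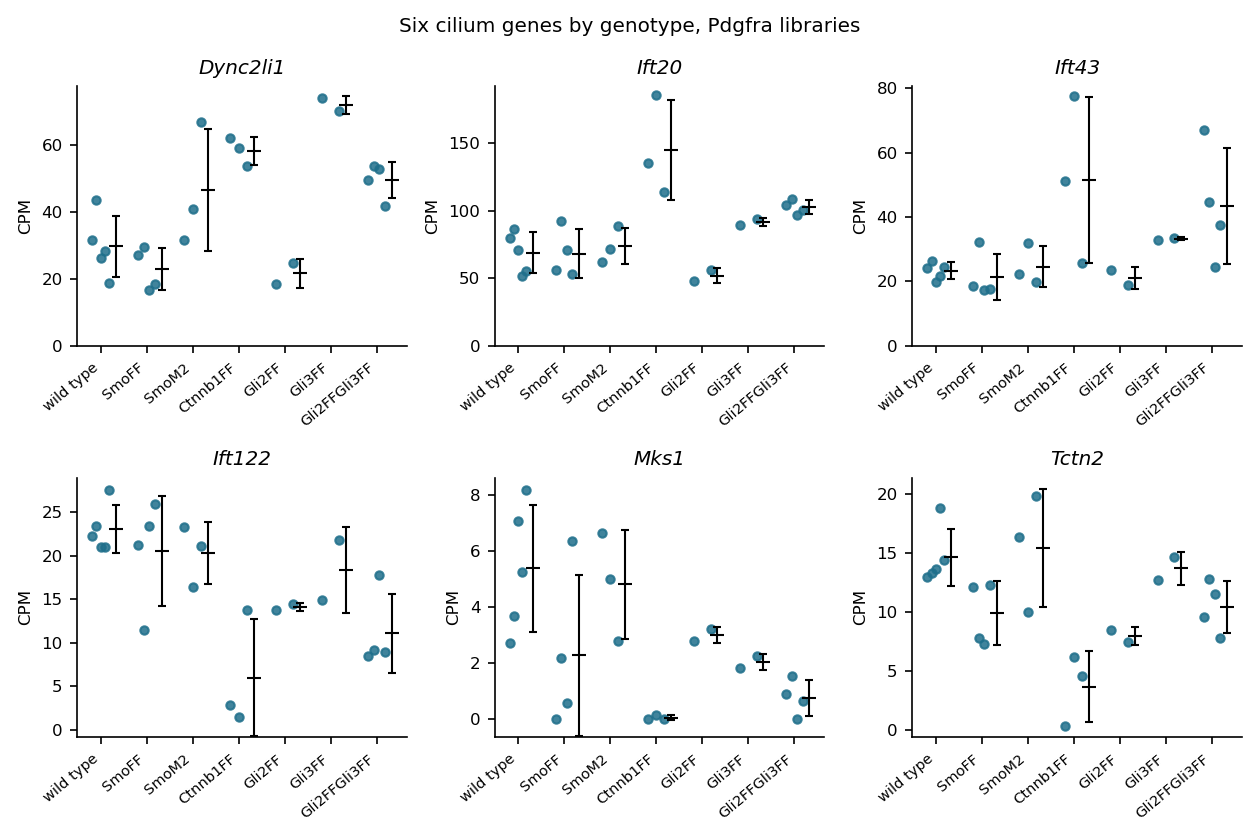
CPM of 6 cilium genes in the 23 Pdgfra libraries by genotype, as points, with mean and SD beside them. Dync2li1 and Ift20 lie above wild type in every Ctnnb1FF and Gli3FF library, while Ift122, Mks1 and Tctn2 lie below wild type in every Ctnnb1FF library and Ift43 overlaps wild type there.

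The genes that rose are short. Ift20, Ift43 and Dync2li1 have 1525, 1651 and 1869 bases of exon, and over the 1186 protein-coding genes under 2000 bases at the level named above the median change in Ctnnb1FF was 0.69, against −0.32 over the 2099 of 8000 bases or more. Over all 10424 such genes the Spearman correlation of change with length was −0.207, a description across genes that share libraries. With the length trend of these genes removed from each library, Ift20 changed by 0.52 (adjusted p = 0.0312) and Dync2li1 by 0.68 (adjusted p = 0.0214), both still called, and Ift43 by 0.65 (adjusted p = 0.103), no longer called. Mks1 (−6.21), Tctn3 (−2.32), Ift122 (−1.67) and Tctn2 (−1.64) kept their calls, and Ift172 (−0.87, adjusted p = 0.0821) did not. With a length trend taken over all genes instead, 8 cilium genes were higher and 2 lower (21.2% of all genes were called). Mks1 and Ift122 held, Tctn2, Tctn3 and Ift172 were no longer called, and Ift20, Ift43 and Dync2li1 held. The median of the 42 was 0.24, against −0.07 over all genes. The sign of the median of the 42 thus depended on this setting. The higher ribosomal RNA share and lower number of genes detected in Ctnnb1FF moved with these values as well. With that share as a covariate (14.7% of all genes called), 6 of the 8 calls held and those of Dync2li1 and Ift172 did not. The part of the ribosomal RNA share or of the number of genes detected in the values was otherwise not tested.

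**Figure D4:**
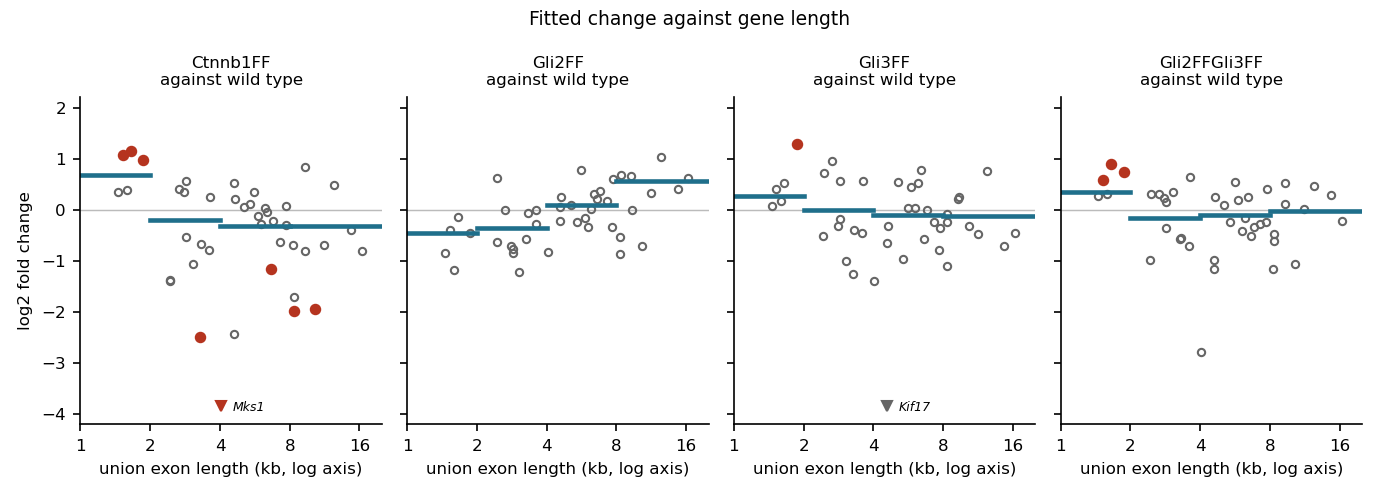
Log2 change of each cilium gene against its union exon length (log axis) in 4 genotypes, filled where called, with triangles for genes below the axis. Blue lines are medians of protein-coding genes in 4 length classes, which fall with length in Ctnnb1FF and rise with it in Gli2FF, from −0.46 to 0.57.

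Genes of the other lists also changed in Ctnnb1FF by edgeR. Of 16 other IFT, BBSome and motor subunits 3 rose and 4 fell, with Dynlrb1 up by 1.25 (SE 0.24, adjusted p = 0.000649) and the BBSome subunit Bbip1 up by 1.48 (SE 0.31, adjusted p = 0.00174). Of 24 ciliary membrane and signalling genes 2 rose and 6 fell, and the adenylyl cyclases Adcy3 and Adcy5 fell from 11.4 ± 3.83 to 1.5 ± 0.627 and from 9.08 ± 2.46 to 0.529 ± 0.669 CPM (adjusted p = 0.000168 and 0.000365). Ehd1, which shapes the early ciliary vesicle, was the single basal body gene of 21 called, from 78.0 ± 9.51 to 18.7 ± 10.2 CPM (adjusted p = 5.32e-05). The cilium gene regulators Rfx2 (−1.78, SE 0.65, adjusted p = 0.0557) and Rfx1 (−2.07, SE 1.03, adjusted p = 0.147) were not called. Of 8 smooth muscle and pericyte markers 3 rose and 1 fell, 3 of 8 mesothelial markers fell, and the 12 cholangiocyte markers summed to 28.7 to 261 against 56.04 to 89.7 CPM. Their part in the cilium genes was not tested.

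In Gli2FF none of the 42 was called (5.84% of all genes were called by edgeR, 2.58% higher and 3.26% lower), with 1 higher and 2 lower at unadjusted p under 0.05. DESeq2 called 1, against 13.7% of all genes, and limma voom 2, against 23.5%. The median change was −0.10, against 0.12 over all genes. With 2 libraries per mutant group, 14 of 42 genes did not overlap wild type, against 34.8% of all genes. B9d1, which forms a complex with Mks1 and B9d2, was at 9.86 and 11.7 CPM in Gli2FF and at 22.8, 33.1, 27.1, 21.4 and 17.97 in wild type. Both Gli2FF libraries were lower, with a log2 change of −1.18 (SE 0.39, adjusted p = 0.0743). Ift80, an IFT-B subunit, was at 35.3 and 19.4 CPM against 8.61 to 18.6 (1.03, SE 0.41, adjusted p = 0.151) and Ift27 at 17.8 and 19.8 against 23.9 to 38.8 (−0.84, adjusted p = 0.233). Length moved with change here in the opposite sense, with a Spearman correlation of 0.478 over the 10424 protein-coding genes. All 5 cilium genes under 2000 bases were below 0 (median −0.46, as in genes of that length), and the 10 of 8000 bases or more had a median of 0.36. Arl13b (0.10), Ift88 (0.25), Kif3a (0.00), Kif7 (0.05) and Dync2h1 (0.62) had adjusted p from 0.525 to 1.

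In Gli3FF, Dync2li1 rose, the 1 gene called among the 42 (4.45% of all genes were, 2.09% higher and 2.36% lower). It was at 74.1 and 70.2 CPM in Gli3FF replicates 1 and 2, above the 18.8 to 43.7 of wild type (1.28, SE 0.29, adjusted p = 0.00937). Gli3FF had the highest level of this gene among the 7 genotypes, with a mean of 72.2 ± 2.72 CPM. The call was lost without either Gli3FF library and with wild type replicates 1 to 3 alone. It was also lost with a replicate block and with the ribosomal RNA share as a covariate. With the length trend removed the change was 1.17 (adjusted p = 0.00233 by edgeR). The median of the 42 genes was −0.21 against −0.22 over all genes, and 12 of 42 did not overlap, against 23.6% of all. Ift74 was at 28.6 and 35.96 CPM against 14.2 to 18.7 (0.95, SE 0.28, adjusted p = 0.0577) and Ift46 at 44.9 and 53.7 against 24.3 to 34.7 (0.78, SE 0.29, adjusted p = 0.144), both higher in each mutant library. The replicates themselves differed: Dync2h1 was at 5.21 and 34.5 CPM and Arl13b at 24.2 and 48.3, 1 library inside the wild type range and 1 outside it, and neither was called (adjusted p = 0.672 and 0.442). Kif3a (−0.45), Ift88 (−0.33) and Kif7 (−0.66) had adjusted p from 0.529 to 0.827. Outside the 42, Rab34, a GTPase of the ciliary vesicle, rose from 95.7 ± 10.9 to 222 ± 22.1 CPM (1.22, SE 0.19, adjusted p = 0.000386), and Ehd1 fell by 1.80 (SE 0.36, adjusted p = 0.00357). Markers of cholangiocytes were low in Gli3FF, at 7.57 to 21.8 CPM in sum with 7 of 12 at 0, as were mesothelial markers, at 38.3 to 49.2 against 131 to 363 CPM in wild type. Their part in the values was not tested.

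In the main edgeR fit of Gli2FFGli3FF, Dync2li1, Ift20 and Ift43 rose, 3 of 42, and 0 fell (17.2% of all genes were called, 7.6% higher and 9.56% lower). Dync2li1 was at 49.7, 53.7, 52.8 and 41.98 CPM in Gli2FFGli3FF replicates 1 to 4, of which only the last lay within the wild type range of 18.8 to 43.7 (0.74, SE 0.24, adjusted p = 0.0382). Ift20 was at 104, 109, 96.6 and 100 CPM, above the 51.5 to 86.6 of wild type (0.58, SE 0.20, adjusted p = 0.0466). Ift43 was at 67.02, 44.8, 24.3 and 37.4 CPM against 19.8 to 26.4, with replicate 3 inside that range (0.90, SE 0.29, adjusted p = 0.0375). These are the genes that rose in Ctnnb1FF, and both comparisons use the same controls. Leaving out 1 library gave 0 to 3 called genes: Dync2li1 was called only without wild type replicate 2 or Gli2FFGli3FF replicate 4, Ift20 only without wild type replicate 2, and Ift43 only without wild type replicate 2 or Gli2FFGli3FF replicate 3 or 4 (adjusted p up to 0.126, 0.153 and 0.133 otherwise). With the length trend of expressed protein-coding genes removed only Dync2li1 was called (0.66, adjusted p = 0.0179), Ift20 being at 0.32 (adjusted p = 0.131) and Ift43 at 0.70 (adjusted p = 0.0696).

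Of the 5 genes that fell in Ctnnb1FF, Mks1 and Ift122 had the larger differences here, and 0 of the 5 were called in the main edgeR fit. Mks1 was called lower by DESeq2 (27.3% of all genes called) and limma voom (24.1%). It was also called lower in the fit of only the groups compared (27.4%) and without the filter on low counts (11.8%). Ift122 was called lower in the same settings except DESeq2. Mks1 was at 0.877, 1.55, 0 and 0.628 CPM, all under the 2.71 of the lowest wild type library (−2.79, SE 1.15, adjusted p = 0.0912). Ift122 was at 8.44, 9.14, 17.8 and 8.91 CPM against 20.99 to 27.5, again without overlap (−1.06, SE 0.43, adjusted p = 0.0894), and Tctn1 at 4.72, 5.21, 3.99 and 8.57 against 10.8 to 14.95 (−1.16, SE 0.49, adjusted p = 0.0994). Tctn3 (−0.57), Ift172 (−0.52) and Tctn2 (−0.49) had smaller differences, with adjusted p from 0.313 to 0.571 by edgeR. Tctn2 still did not overlap, at 7.77 to 12.81 CPM against 12.95 to 18.8 in wild type. Tctn1 shares 25.5% of its exon bases with Gm15481 and Hvcn1 on the other strand and is uncertain. The groups did not overlap for 6 of 42 genes, against 19.5% of all. The median of the 42 was 0.05, against −0.35 over all genes and −0.07 over expressed protein-coding genes. Arl13b (0.09), Ift88 (0.24), Kif3a (−0.72), Kif7 (−0.995) and Dync2h1 (−0.23) had adjusted p from 0.0931 to 0.88.

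Related genes in Gli2FFGli3FF showed 3 higher and 0 lower of 16 other IFT, BBSome and motor subunits by edgeR, with Bbip1 up by 1.02 (SE 0.29, adjusted p = 0.0191) and Dynlrb1 by 0.74 (SE 0.22, adjusted p = 0.0235). Basal body genes went 0 higher and 3 lower of 21, with the distal appendage gene Fbf1 at 4.29 ± 1.36 against 13.4 ± 3.15 CPM (adjusted p = 0.00113). Among 24 ciliary membrane and signalling genes 1 rose and 6 fell, the deleted Gli3 and the polycystin gene Pkd1 among them (75.9 ± 10.2 to 18.8 ± 6.40 CPM, adjusted p = 0.000266). The ribosomal RNA share, 38.4 to 50.03%, reached further than in any other group. With it as a covariate none of the 42 was called, and the share of all genes called was 4.7%, against 17.2% without it. Cell cycle genes summed to 117 to 438 CPM against 62.0 to 102 in wild type, with 3 of 25 higher. The part of either in the values was not tested.

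**Figure D5:**
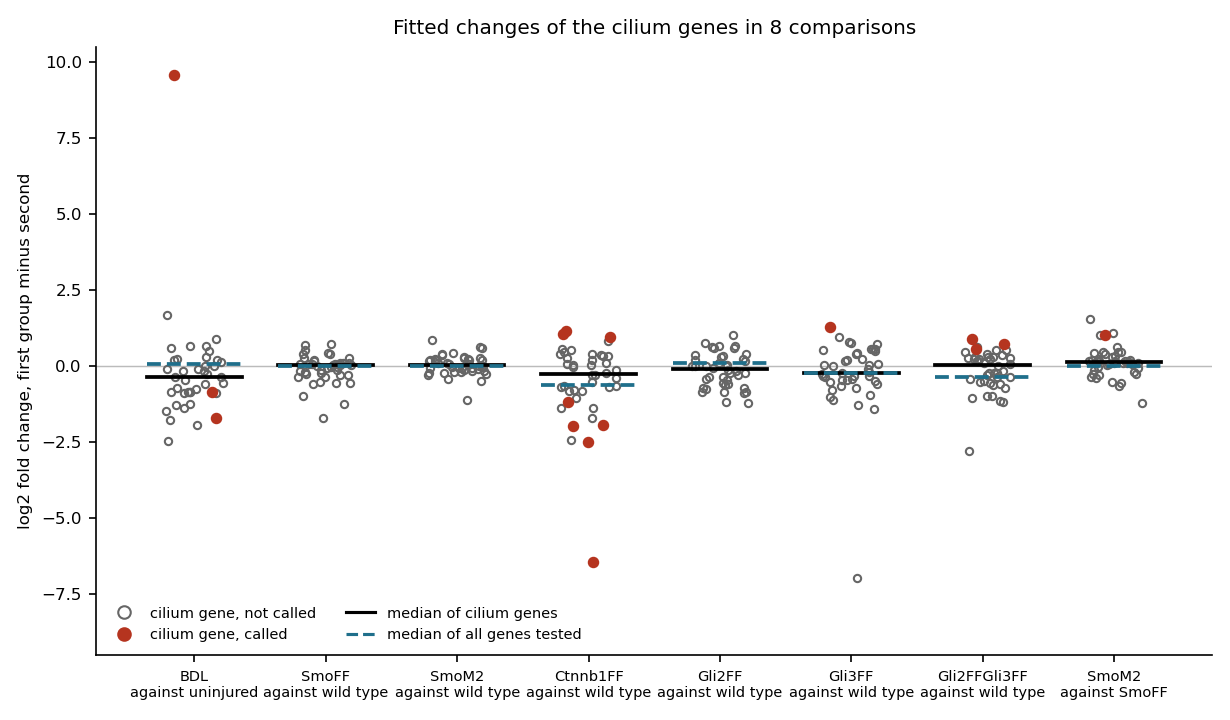
Fitted log2 change of each cilium gene in 8 comparisons, filled where called at adjusted p under 0.05, with the median of the cilium genes (black) and of all genes tested (dashed). Most points lie within 1 log2 unit of 0, and 8 of 42 genes are filled in Ctnnb1FF.

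Dync2li1 was called in 4 of the 7 genotype comparisons by edgeR, which share libraries. The calls against wild type, in Ctnnb1FF, Gli3FF and Gli2FFGli3FF, were each lost with the ribosomal RNA share as a covariate. Each was also lost with a replicate block and with wild type replicates 1 to 3 alone. The call in SmoM2 against SmoFF was lost in 12 of 17 alternatives. The mean of Dync2li1 was 21.7 ± 4.38 CPM in Gli2FF, 22.997 ± 6.36 in SmoFF, 29.8 ± 9.11 in wild type, 46.6 ± 18.3 in SmoM2, 49.6 ± 5.33 in Gli2FFGli3FF, 58.4 ± 4.25 in Ctnnb1FF and 72.2 ± 2.72 in Gli3FF. The first 3 of this order overlap, as do SmoM2 and the groups around it, while every Ctnnb1FF and Gli3FF library lay above every library of Gli2FF, SmoFF and wild type. Its partner Dync2h1 had another order, with 15.4 ± 3.18 CPM in Ctnnb1FF and 41.6 ± 8.44 in Gli2FF at the ends and wild type at 27.1 ± 11.3 between. Dync2h1 has 16348 bases of exon and Dync2li1 1869. Protein-coding genes under 2000 bases had a median change of 0.69 in Ctnnb1FF, 0.35 in Gli2FFGli3FF and 0.28 in Gli3FF, where Dync2li1 was called higher. Their median was −0.11 in SmoFF and −0.46 in Gli2FF, where the mean of Dync2li1 was lower without a call. In SmoM2 their median was −0.21, and Dync2li1 was at 0.65 without a call.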

How the data were processed

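Per the labels' protocols, cells were freed from each bile duct with enzymes and sorted by flow cytometry, and full-length cDNA was amplified and made into fragment libraries. The values are whole read counts per gene symbol as deposited by the authors in 8 tables, and the submitters' processing notes name the genome build mm10. Aligner, counting tool, annotation and strand setting: not given in the sources used here. No molecular identifiers were counted, so amplified copies are counted as reads.

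Genes were filtered with filterByExpr and scaled by TMM, and edgeR 4.0.16 (R 4.3.3) quasi-likelihood tests were fitted across all genes, in 1 fit of the 23 Pdgfra libraries and 1 of the 6 Gli1 libraries, with Benjamini-Hochberg adjustment at 0.05. The standard error is the log2 fold change divided by the square root of F. DESeq2 1.42.0, limma 3.58.1 (voom with quality weights), other scaling and filters, a replicate block, a ribosomal RNA covariate and left-out libraries were alternatives. Removal of a gene length trend (lowess, span 0.5) was added after seeing the data. Symbols were matched to GENCODE M21 (53292 of 55291) for union exon lengths and to RefSeq for promoters. The tests were tested on simulated data. Floors take 3 counts per library, and the 95% interval covers counting error only. The cilium genes and the other lists were chosen with earlier results of these data known. Named are Arl13b, Ift88, Kif3a, Kif7 and Dync2h1 whatever they show, called genes, the 4 with the smallest p per comparison, at most 2 called genes of each other list, and some genes chosen after their values were seen.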

Additional observations from a re-analysis of the deposited data

Results flagged for a closer look

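In groups of 4 or 5 libraries, a single library stood far from the others for 9 of 126 combinations of gene and group by Dixon's test, and chance gives about 1 in 20. In wild type, replicate 1 had 10.7 CPM of Bbs5 where the others had 2.44 to 4.73, and 12.9 CPM of Tulp3 where the others had 21.1 to 23.3. Wild type replicate 4 had 18.8 CPM of Tctn2, above the 12.9 to 14.4 of the rest. In SmoFF, Bbs1 was at 20.9 CPM in replicate 3 against 4.55 to 6.69, Bbs7 at 2.92 in replicate 1 against 5.15 to 5.601, Ift43 at 32.2 in replicate 2 against 17.4 to 18.5, and Tulp3 at 4.38 in replicate 2 against 19.9 to 22.2. In Gli2FFGli3FF, Ift122 was at 17.8 CPM in replicate 3 against 8.44 to 9.14, and Kif17 at 1.03 in replicate 4 against 0 to 0.067.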

How the results depend on the processing

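The 16 calls were refitted in 304 single alternatives: 194 kept the call, 110 lost it and 0 changed direction. Counts of called cilium genes that moved by over 1.5 times follow by setting, each with the share of all genes called in percent. For ligation (3 called, 13.6% of all genes), DESeq2 called 13 (20.7%) and limma voom 6 (16.7%). No filter on low counts gave 1 (4.59%) and the ribosomal RNA covariate 0 (3.5%). For SmoFF (0, 1.55%), no filter gave 1 (2.32%). For Ctnnb1FF (8, 19.9%), wild type replicates 1 to 3 alone gave 4 (14.3%) and replicates 4 and 5 alone 5 (14.3%). For Gli2FF (0, 5.84%), DESeq2 gave 1 (13.7%) and a fit of only the groups compared 3 (11%). There, limma voom gave 2 (23.5%) and wild type replicates 1 to 3 alone 1 (7.85%). For Gli3FF (1, 4.45%), DESeq2 (12.7%) and the fit of only the groups compared (7.72%) gave 3 each. The length trend over all genes (4.78%), that over expressed protein-coding genes (5.32%) and RLE scaling (4.54%) gave 2 each. The ribosomal RNA covariate (3.99%) and wild type replicates 1 to 3 alone (4.47%) gave 0 each. For Gli2FFGli3FF (3, 17.2%), the fit of only the groups compared (27.4%) and limma voom (24.1%) gave 6 each, 3 higher and 3 lower. Without the filter on low counts the number stayed at 3 (11.8%), but with 1 higher and 2 lower. The length trend over all genes gave 5 (17.7%) and that over expressed protein-coding genes 1 (21%). With the ribosomal RNA locus left out there was 1 (17.5%), and with the covariate (4.7%) or wild type replicates 1 to 3 alone (12.6%) 0. For SmoM2 against SmoFF (1, 2.63%), 5 settings gave 0. They were the fit of only the groups compared (3.77%), the length trend over all genes (2.39%), limma voom (6.67%), the locus left out (2.68%) and RLE scaling (2.65%). For any difference among the 7 genotypes (7, 32.8%), DESeq2 gave 13 (46.6%) and limma voom 14 (54.5%). The length trend over expressed protein-coding genes (34.7%) and the covariate (23.1%) gave 3 each. Leaving out 1 library gave 0 to 4 for ligation, 5 to 9 for Ctnnb1FF, 0 to 1 for Gli3FF, 0 to 3 for Gli2FFGli3FF, 0 to 1 for SmoM2 against SmoFF and 4 to 9 for any difference, and 0 throughout for SmoFF, SmoM2 and Gli2FF. Where an arm kept 1 library, it was assumed to vary like the other groups. The cause of these shifts was not tested.

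With the replicate number as a block, 0 cilium genes were called for ligation (2.5% of all genes) and 0 for Gli3FF (3.07%). For Gli2FFGli3FF 1 was called (11.8%) and for SmoM2 against SmoFF 0 (2.01%). For Ctnnb1FF 6 were called (13.4%), without Dync2li1 and Ift172. Deviations of same-numbered libraries from their group means had correlations of −0.259 to 0.166, and with 3 or more pairs 0 or 1 library correlated best with its own number. In groups this small such correlations cannot exclude a pairing of same-numbered libraries.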

Other observations

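Motile cilia are built from parts that a primary cilium lacks, and of the 20 genes listed for them 8 passed the filter on low counts in the Gli1 fit and 12 in the Pdgfra fit. Tppp3, a tubulin-binding protein that is also made by connective tissue cells without motile cilia, was abundant. It was at 1174 ± 384 CPM (SD, n = 3) in uninjured and 150.2 ± 21.3 (n = 3) in ligated libraries, a log2 change of −2.97 (SE 0.30, adjusted p = 0.00328 by edgeR's quasi-likelihood test). Against 609 ± 88.5 CPM in wild type (n = 5) it was lower in Gli3FF, at 155 ± 17.7 (adjusted p = 0.00587), in Gli2FF, at 163 ± 116 (adjusted p = 0.00721), and in Gli2FFGli3FF, at 218 ± 104 (adjusted p = 0.00183). These comparisons share the wild type libraries.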
